A study of Mus musculus with 2 samples.

Results

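The 6 fibroblast growth factor ligands *Fgf1*, *Fgf2*, *Fgf7*, *Fgf9*, *Fgf10* and *Fgf18* were followed across the cell clusters of the mouse embryonic coronal suture. They were listed by gene symbol, with earlier results of these data known. They are 6 of the 27514 genes present in the gene lists of both libraries, and each had a row in both. Fgf ligands are secreted proteins that bind receptor tyrosine kinases together with heparan sulfate and act over short distances between neighbouring cell layers. *Fgf7* and *Fgf10* form a subfamily that signals mainly from mesenchyme to epithelium through *Fgfr2*, *Fgf9* is a growth factor with a known role in skeletal development, *Fgf18* is a regulator of calvarial bone and cartilage formation, and *Fgf1* and *Fgf2* lack a classical secretion signal. In skull sutures, Fgf signalling is best known from craniosynostosis, the early fusion of cranial bones, which activating mutations of the receptors can cause.

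Coronal sutures, the seams between the frontal and parietal bones, were dissected from wildtype C57/BL6 embryos, and single-cell transcriptomes were collected at 2 stages. The E15.5 library came from 10 pooled sutures in a single preparation, dissociated with collagenase II and dispase and cleared of dead cells on a column kit. The E17.5 sample joined 3 batches, sorted and prepared as libraries separately but deposited as 1 matrix, with 10 sutures from 1 litter and 3 sutures each in the other 2 batches from a second litter, all dissociated with collagenase IV. No allele or agent set the groups apart, skin and brain had been removed from all of them along with part of the meninges, and each stage was deposited as 1 sample, called a library here. E15.5 had a single preparation and the E17.5 batches are not matched to barcode suffixes, so the stages were compared without a test. Dissection differed too, since the E17.5 strips avoided the most apical and basal parts of the suture, and the stages were sequenced at different sites. Stage, dissection, enzyme, sorting, litter, sequencing site and counting run differed together and cannot be told apart.

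The deposited labels placed 5335 cells at E15.5 and 6830 cells at E17.5 in 15 clusters, with medians of 8510 and 12302 transcript counts (unique molecular identifiers, UMIs) per cell. EC1 to EC4 are ectocranial mesenchyme above the bones and LIG is a ligament-like population, counted here with the ectocranial group. OG1 to OG4 are osteogenic, PO1 and PO2 are proliferating osteogenic cells, and MG1 to MG4 are meningeal. Fixed marker lists were highest in the matching clusters for 6 of 6 osteogenic, 4 of 4 ectocranial and 5 of 5 meningeal genes in both libraries, and for 4 of 5 (E15.5) and 3 of 5 (E17.5) ligament-like genes. The 2 libraries shared 190 barcode sequences, 42 of them between labelled cells. Clusters ranged from 28 cells (MG1 at E15.5) to 1185 cells (EC3 at E15.5), and the batches of the E17.5 library appear below as barcode suffixes 1 to 3, whose match to the named batches is not given. Levels are CPM, the UMIs of a gene per 1000000 UMIs of all genes in the same cells, ranges in parentheses are exact 95% intervals that cover counting error only, and a level is compared between clusters or libraries, not between genes. The clusters had been drawn from these same cells, so differences between them are descriptions.

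The gene starts of the 3 ligands with the clearest ectocranial levels are shown for reference, as the 250 bases before the start of each gene in RefSeq (GRCm38.p6), 5′ to 3′ on the gene's own strand. None of these stretches overlaps an annotated exon. *Fgf9* is at chr14:58072436-58072685 (plus strand, inside the wider span that GENCODE gives the gene), *Fgf18* at chr11:33147401-33147650 (minus strand) and *Fgf7* at chr2:126034408-126034657 (plus strand). Capitals mark matches on either strand to the TATA box TATAAA, the GC box GGGCGG, the CCAAT box CCAAT, or the binding core of Runx factors TGTGGT, and positions are those of the first base of a match, counted back from the gene start. The E-box was searched too and is not in capitals.
Fgf9: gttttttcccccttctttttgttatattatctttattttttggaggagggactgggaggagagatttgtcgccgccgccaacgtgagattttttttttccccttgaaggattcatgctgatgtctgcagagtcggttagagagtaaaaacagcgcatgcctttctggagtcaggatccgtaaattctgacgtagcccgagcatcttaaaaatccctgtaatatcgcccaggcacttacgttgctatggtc
Fgf18: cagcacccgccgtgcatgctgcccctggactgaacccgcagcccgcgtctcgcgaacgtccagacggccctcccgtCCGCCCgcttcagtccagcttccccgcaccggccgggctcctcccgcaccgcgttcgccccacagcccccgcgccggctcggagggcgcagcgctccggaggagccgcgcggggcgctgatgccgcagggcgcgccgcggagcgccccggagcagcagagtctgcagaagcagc
Fgf7: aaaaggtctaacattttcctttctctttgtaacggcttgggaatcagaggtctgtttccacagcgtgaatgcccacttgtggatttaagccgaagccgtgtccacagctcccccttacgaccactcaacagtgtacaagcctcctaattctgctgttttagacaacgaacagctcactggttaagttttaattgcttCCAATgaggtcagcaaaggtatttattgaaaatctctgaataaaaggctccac
The *Fgf18* stretch held 77.2% G and C, more than 97.4% of the 32851 promoters compared, and a GC box at position -174. GC boxes (GGGCGG) stood in 32.7% of all promoters of this length. The *Fgf7* stretch held 43.6% G and C, a CCAAT box at position -53 (found in 33.9% of promoters) and an E-box, CANNTG in letters, at position -177 (66.2%). The *Fgf9* stretch held 44.8% G and C and no match to any of the 5 motifs, the others being the TATA box (12.4% of promoters) and the Runx core (14%). A match or its absence describes these letters only.

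Among the 5 ligands with at least 20 UMIs in each library, 4 of 75 pairs of a ligand and a cluster (5.33%) were at least 2-fold above the other labelled cells in both libraries, where 2.12% of all pairs of a gene and a cluster were. They were *Fgf9* in EC4, where 1.53% of 13411 genes met the rule, *Fgf9* in LIG (0.977%), *Fgf7* in EC3 (1.58%) and *Fgf10* in OG1 (0.455%). These pairs belonged to 3 of the 5 ligands, and 23.5% of all genes had such a cluster. *Fgf2* and *Fgf18* had none in both libraries. With 5 ligands, these shares describe the list and set it apart from nothing.

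**Figure D1:**
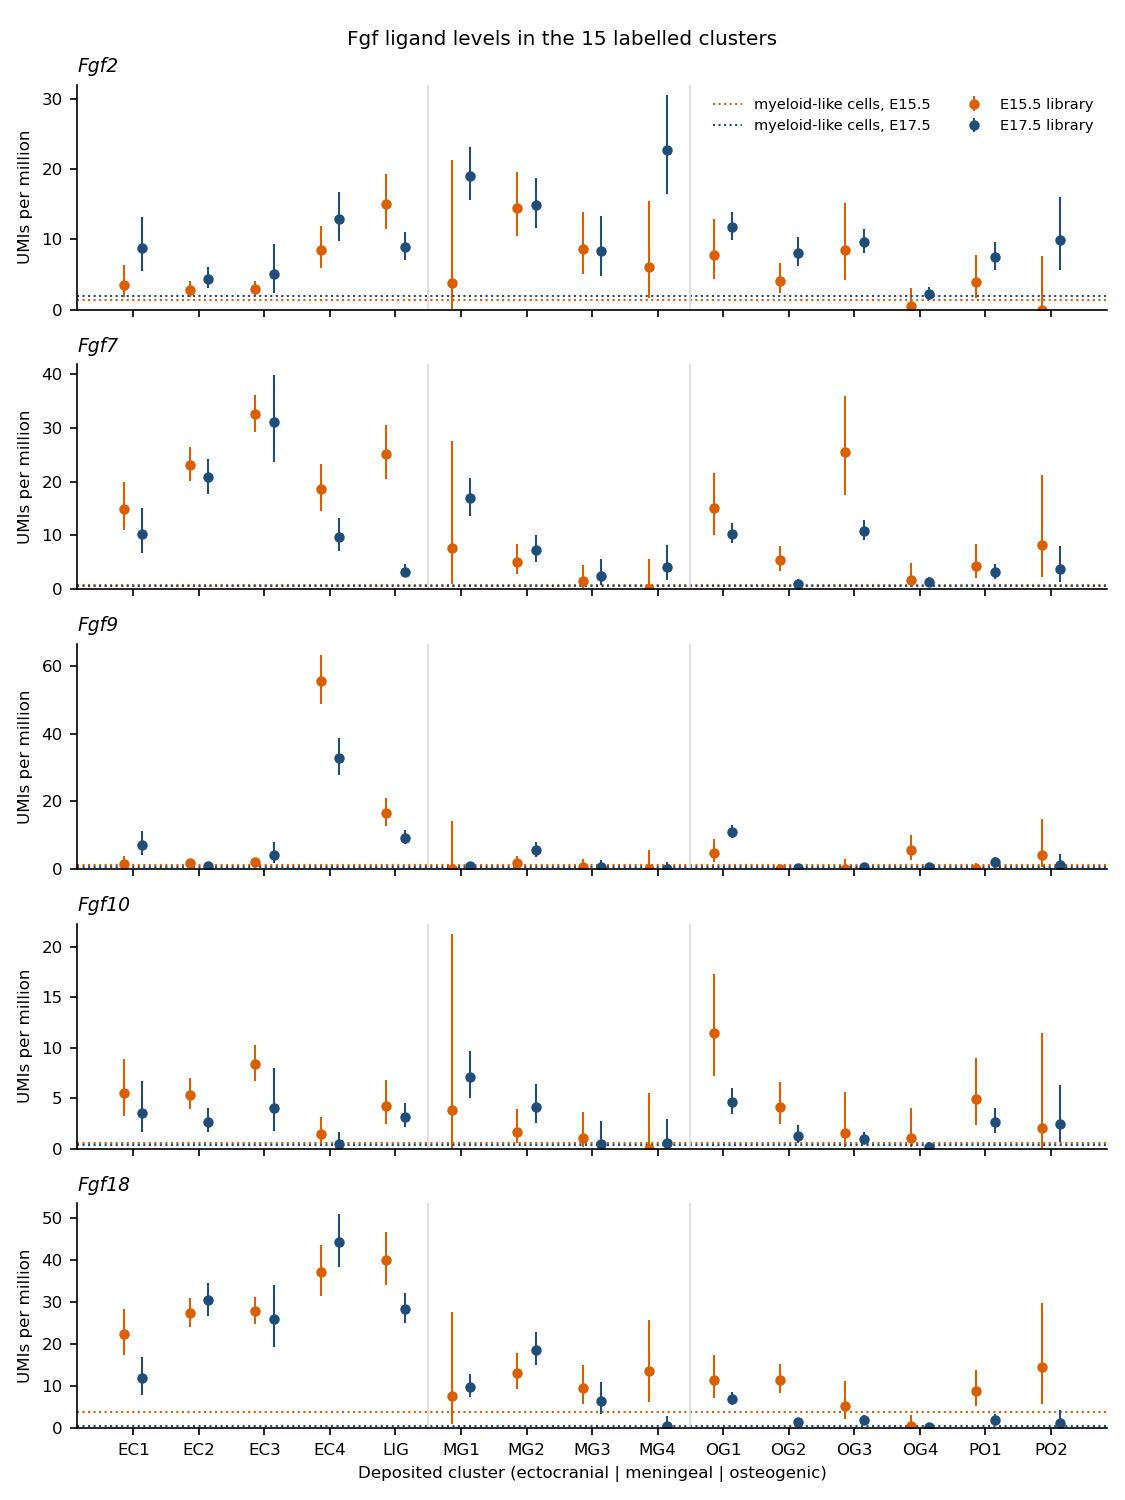
Level of 5 Fgf ligands (CPM, linear axis) in each of the 15 labelled clusters, with orange points for the E15.5 library and blue points for the E17.5 library; bars are exact 95% Poisson intervals and dotted lines the level in myeloid-like cells. *Fgf9* stands out in EC4 (55.7 and 32.9 CPM), *Fgf18* is highest in LIG at E15.5 and in EC4 at E17.5, and *Fgf7* is highest in EC3 (32.5 and 31.0 CPM).

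*Fgf9*, on the plus strand of chromosome 14 (58070547 to 58112720, GRCm38), was highest in EC4, the mesenchyme directly above the suture that is marked by *C1qtnf3*, in both libraries. At E15.5 EC4 held 55.7 CPM (48.7 to 63.4; 228 UMIs), with a UMI in 142 of 469 cells (30.3%). At E17.5 it held 32.9 CPM (27.8 to 38.7; 148 UMIs), with a UMI in 87 of 370 cells (23.5%). EC4 was thus 18.5-fold and 9.18-fold above the rest of the labelled cells, and after each cell had been thinned to 3000 UMIs 14.4% and 10.0% of its cells still held an *Fgf9* UMI. The 3 suffixes of the E17.5 library gave 39.4, 23.7 and 38.9 CPM in EC4, all of them above every other whole cluster of that library.

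LIG came next at E15.5, at 16.5 CPM (12.8 to 21.1; 66 UMIs), 3.37-fold below EC4 (2.55 to 4.5) and 2.99-fold above OG4 (1.53 to 6.53), the cluster that followed. At E17.5 LIG held 9.23 CPM (7.37 to 11.4; 85 UMIs). The place behind EC4 was then taken by OG1, an osteogenic cluster, at 10.9 CPM (9.09 to 12.9; 130 UMIs in 84 of 1010 cells), which did not differ from LIG beyond counting error (ratio 1.18, 0.890 to 1.57). OG1 had held 4.68 CPM (2.14 to 8.88) at E15.5, from 9 UMIs, and its 3 suffixes gave 7.58, 11.6 and 10.9 CPM at E17.5. All 3 lay above the E15.5 value and the suffix 1 value lay inside its interval.

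At E17.5 EC1 followed at 7.12 CPM (4.22 to 11.2; 18 UMIs), which did not differ from LIG beyond counting error (LIG to EC1 ratio 1.30, 0.773 to 2.29), then MG2 at 5.58 and EC3 at 4.06 CPM. The remaining clusters held at most 2.06 CPM (PO1). At E15.5 no UMI was found in MG1, MG4, OG2, OG3 or PO1, which in OG2, the deepest of them, allows up to 0.731 CPM. OG4 held 10 UMIs in 8 cells at E15.5 (5.53 CPM) and 5 UMIs at E17.5 (0.476 CPM). Myeloid-like cells were assumed to lack the gene, which was not tested. In them *Fgf9* stood at 1.31 and 0.533 CPM, with a UMI in 0.504% of 397 cells (median 8843 UMIs) and in 0.542% of 554 cells (median 9148 UMIs). Clusters whose ratio to that level had an interval above 1 were EC4, LIG, OG1 and OG4 at E15.5, and EC1, EC3, EC4, LIG, MG2, OG1 and PO1 at E17.5. Levels elsewhere were not told from it, as in EC3 at E15.5 (ratio 1.49, 0.547 to 5.06). The myeloid-like level itself rests on few cells.

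Of all *Fgf9* UMIs in labelled cells, EC4 held 63.0% (E15.5) and 31.9% (E17.5), LIG 18.2% and 18.3%, and OG1 2.49% and 28%. Cell numbers moved with these shares. EC4 made up 8.79% and then 5.42% of labelled cells, and OG1 4.89% and then 14.8%. The whole ectocranial group held 92.5% and 57.5% of *Fgf9* UMIs, against 64.0% and 28.2% of all UMIs.

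**Figure D2:**
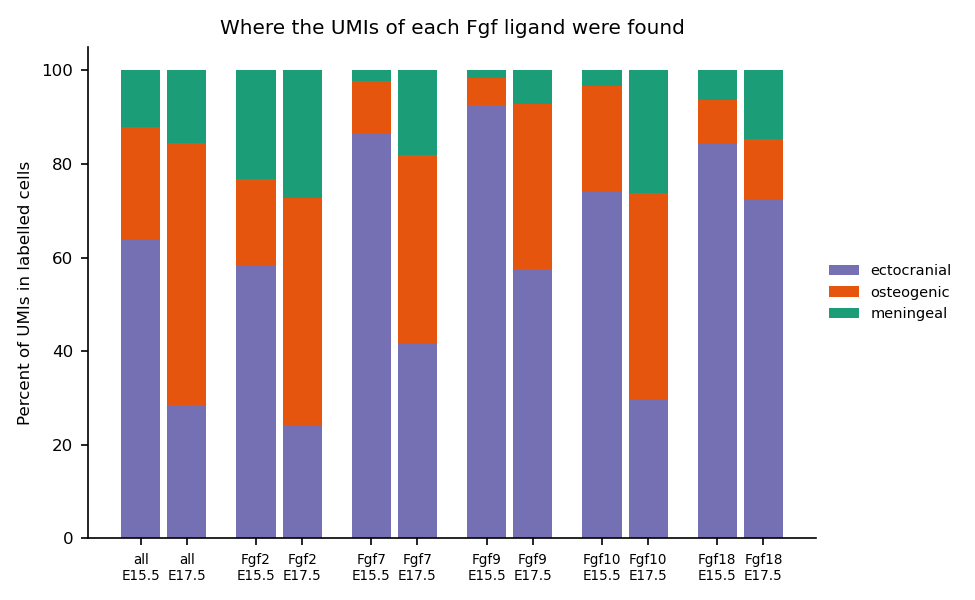
Percent of each ligand's UMIs in labelled cells (stacked bars) that came from ectocranial (EC1 to EC4 and LIG), osteogenic and meningeal clusters, beside the same split of all UMIs, for each library. In the ectocranial part *Fgf9* (92.5% and 57.5%), *Fgf18* (84.5% and 72.4%) and *Fgf7* (86.7% and 41.7%) lie above the split of all UMIs (64.0% and 28.2%) in both libraries. *Fgf10* does too (74.3% and 29.7%), with an interval that includes the split at E17.5 (23.9% to 36.1%). *Fgf2* lies above it in the meningeal part (23.2% and 27.4%).

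Within EC4, cells with and without an *Fgf9* UMI differed in several markers. The level of *C1qtnf3*, which encodes a secreted collagen-like protein, in cells with *Fgf9* was 1225 CPM at E15.5, against 748 CPM in the other EC4 cells. The E17.5 values were 2433 and 1192 CPM. The tenomodulin gene *Tnmd* was lower in cells with *Fgf9* in both libraries (275.3 against 339 and 333 against 427 CPM). The rest of the ligament list did not follow it. *Chodl* was higher in both (38.9 against 22.8 and 90.3 against 37.3 CPM). *Mkx* and *Tac1* were lower at E15.5 and higher at E17.5, and *Scx* was at 5.44 against 3.21 and 11.1 against 8.80 CPM, from few UMIs. The ectocranial marker *Dpt* was higher in both (145 against 105 and 23.0 against 13.2 CPM). Another ectocranial marker, *Ly6a*, was lower at E15.5 (229 against 282 CPM) and higher at E17.5 (193 against 123 CPM), and *Pi16* was lower at E15.5 (128 against 173 CPM) and at 67.2 (52.7 to 84.5) against 60.5 CPM at E17.5. The E17.5 cells without *Fgf9* also held more of the osteogenic genes *Sp7* (42.6 against 7.37 CPM) and *Dlx6* (20.5 against 3.68 CPM), with doublet calls on 29 of 283 cells (10.2%) against 3 of 87 (3.45%). At E15.5 doublet calls fell on 9 of 327 cells without and 7 of 142 with *Fgf9*. The part of mixed droplets in these differences was not tested. The median UMI count of the cells with *Fgf9* was 8291 against 7796 at E15.5 and 11013 against 10636 at E17.5. In OG1 at E17.5 the 84 cells with an *Fgf9* UMI held less *Alpl*, the alkaline phosphatase of mineralising cells, than the other 926 (60.5 against 179 CPM), and less *Sp7*, a transcription factor of osteoblast differentiation (42.5 against 96.2 CPM). They held more of the ligament-list genes *Chodl* (89.2 against 28.8 CPM), *Scx* (56.3 against 29.1 CPM) and *Tac1* (44.6 against 20.8 CPM). *Tnmd* stood at 62.6 (47.7 to 80.8) against 70.9 CPM and *Mkx* at 40.3 (28.5 to 55.4) against 42.3 CPM. Of the ectocranial list *C1qtnf3* was higher in them (110 against 67.3 CPM), with overlapping intervals for *Pi16*, *Dpt* and *Ly6a*. The osteoblast gene *Ifitm5* was higher too (78.5 against 44.0 CPM) and stood at 29.1 to 126 CPM in every cluster of that library but OG4. Doublet calls fell on 1 of the 84 and 25 of the 926. At E15.5 the 8 OG1 cells with *Fgf9* held more *Alpl* than the other 253, the opposite direction (138 CPM, 59.5 to 271, from 8 UMIs, against 44 CPM), *Sp7* at 17.2 CPM from 1 UMI against 15 CPM, and more *Scx* (103.3 against 24.7 CPM). LIG cells with an *Fgf9* UMI held more of the EC4 marker *C1qtnf3* than the other LIG cells (472 against 187 and 546 against 347 CPM). Doublet calls fell on 5 of 52 against 21 of 445 LIG cells at E15.5 and on 5 of 62 against 34 of 613 at E17.5. Of the ligament list, *Tac1* was lower in them at E15.5 (24.3 against 59.8 CPM) and *Chodl* higher at E17.5 (406 against 310 CPM), with overlapping intervals otherwise. These genes served in the check of labels, their levels are descriptions over cells of 1 library, and the part of mixed droplets here was not tested either.

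*Fgf18*, on the minus strand of chromosome 11 (33117430 to 33147400), was highest in ectocranial clusters, with EC1 at the level of the other labelled cells (0.99-fold and 1.02-fold). At E15.5 LIG held 39.9 CPM (33.9 to 46.6), EC4 37.1 (31.5 to 43.5), EC3 27.9, EC2 27.3 and EC1 22.4 CPM. At E17.5 EC4 held 44.3 CPM (38.4 to 50.9; a UMI in 35.7% of its cells), EC2 30.4, LIG 28.3 (25 to 32.0), EC3 25.9 and EC1 11.9 CPM. LIG and EC4 did not differ beyond counting error at E15.5, where EC4 was 1.33-fold above EC3 (1.09 to 1.62). At E17.5 EC4 was 1.45-fold above EC2 (1.2 to 1.76), and the suffixes gave 45.0, 48.0 and 38.9 CPM in EC4 and 26.5, 28.4 and 28.5 CPM in LIG.

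The meningeal cluster MG2 held 13.1 CPM of *Fgf18* at E15.5 and 18.6 CPM at E17.5, when it lay 1.57-fold above EC1 (1.03 to 2.46), and OG1 held 11.4 and 6.86 CPM. OG4, the cluster with the highest level of the osteoblast gene *Ifitm5* (3263 and 3238 CPM), was at the foot of the order in both libraries with 1 and 4 UMIs (0.553 and 0.381 CPM). Myeloid-like cells held 3.94 CPM at E15.5 (2.20 to 6.5, in 3.78% of cells) and 0.533 CPM at E17.5, so the low E15.5 values of OG3 (5.41 CPM) and MG1 (7.64 CPM) are not told from that level. OG4 lay below it at E15.5 (ratio 0.140, 0.00333 to 0.912). LIG stood 1.89-fold and 2.88-fold above the rest of the labelled cells and EC4 1.74-fold and 4.42-fold, which left both short of the 2-fold rule at E15.5.

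*Fgf9* and *Fgf18* were found in the same cells of EC4 somewhat more often than the product of their shares. In cells thinned to 3000 UMIs, 11 EC4 cells held both at E15.5 where that product gives 6.93, and 8 held both at E17.5 where it gives 5.20. In LIG the counts were 2 and 2 against 2.05 and 1.52. These are small counts in single libraries. Without thinning, EC4 cells with *Fgf9* held *Fgf18* at 45.9 CPM (34.9 to 59.2) against 33.1 CPM (26.7 to 40.6) in the other EC4 cells at E15.5, and at 76.5 (60.9 to 94.8) against 34.0 CPM (28.1 to 40.8) at E17.5.

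*Fgf7*, a growth factor for epithelial cells on the plus strand of chromosome 2 (126034658 to 126091185), had its highest level in EC3, an outer ectocranial cluster. EC3 held 32.5 CPM (29.2 to 36.1; 349 UMIs) at E15.5 and 31.0 CPM (23.7 to 39.8; 61 UMIs) at E17.5. The rest of the labelled cells lay 2.22-fold and 3.90-fold lower. OG3 (25.5 CPM, 17.6 to 35.8), LIG (25.1), EC2 (23.1) and EC4 (18.6) followed at E15.5, and neighbours in that order did not differ beyond counting error. At E17.5 EC3 was 1.49-fold above EC2 (20.8 CPM; 1.09 to 2.01), and MG1, at 16.9 CPM, was 1.55-fold above OG3 (10.9 CPM; 1.18 to 2.03). The suffixes gave 38.2, 27.3 and 32.5 CPM in EC3.

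Among the ectocranial clusters, the widest gap in *Fgf7* between the libraries was in LIG. It held 25.1 CPM at E15.5 (20.4 to 30.5; 100 UMIs in 497 cells) and 3.26 CPM at E17.5 (2.20 to 4.65; 30 UMIs in 675 cells). This was 7.69-fold lower (5.07 to 12.0), where EC3 was at a ratio of 0.952 (0.713 to 1.25), EC2 at 0.897 (0.728 to 1.11), EC1 at 0.687 (0.408 to 1.14) and EC4 at 0.528 (0.355 to 0.775). The suffixes held 8.84, 2.67 and 3.37 CPM in LIG, from 3, 11 and 16 UMIs. At least 2-fold lower levels were seen in LIG for 9.64% of genes. The difference between clusters was not tested.

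**Figure D3:**
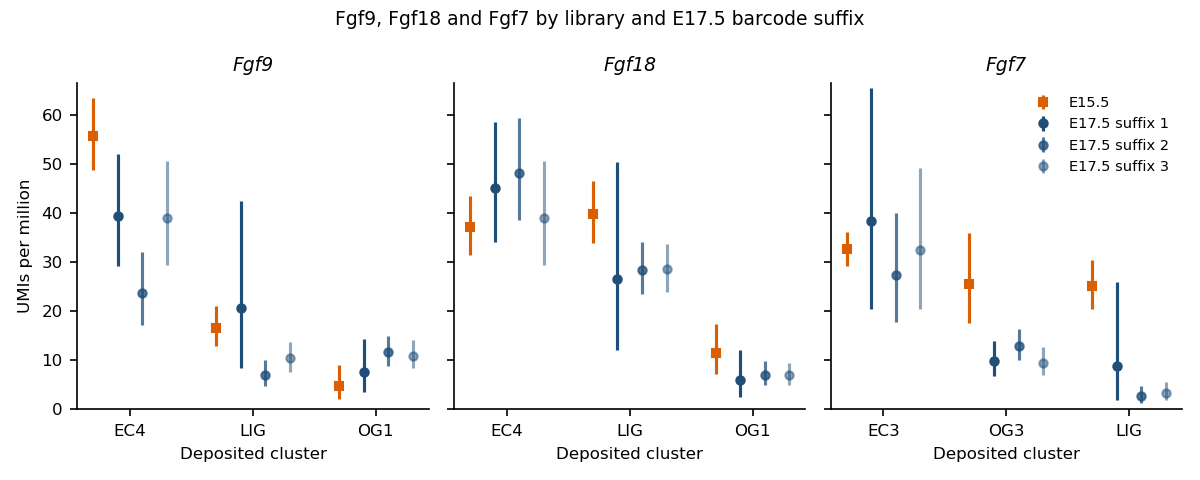
Levels (CPM, with exact 95% Poisson intervals) of *Fgf9* and *Fgf18* in EC4, LIG and OG1 and of *Fgf7* in EC3, OG3 and LIG, in the E15.5 library and in each barcode suffix of the E17.5 library. *Fgf7* in LIG lies at 25.1 CPM in the E15.5 library and from 2.67 to 8.84 CPM in the suffixes, and *Fgf9* in LIG ranges from 7.03 to 20.6 CPM among the suffixes.

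*Fgf10*, the second member of this subfamily (chromosome 13, 118669791 to 118792115, plus strand), was sparse in labelled cells. OG1 held 11.4 CPM at E15.5 (7.17 to 17.3; 22 UMIs) and 4.6 CPM at E17.5 (3.47 to 5.99; 55 UMIs), 2.44-fold and 2.1-fold above the rest. EC3 held 8.39 CPM (90 UMIs) and 4.06 CPM (8 UMIs), and did not differ from OG1 beyond counting error in either library. MG1 led the E17.5 library at 7.08 CPM (39 UMIs), 1.54-fold above OG1 with an interval that included 1 (0.994 to 2.36). EC4, the cluster highest for *Fgf9*, held 1.47 and 0.445 CPM of *Fgf10* against 0.525 and 0.355 CPM in myeloid-like cells. After thinning, *Fgf7* and *Fgf10* shared 5 labelled cells at E15.5, where the product of shares gives 4.38, and 0 at E17.5, where it gives 1.61.

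*Fgf2* (chromosome 3, 37348346 to 37410108, plus strand) had UMIs in 14 and 15 of the 15 clusters and passed the 2-fold rule in none. At E15.5 LIG held 15 CPM (60 UMIs) and MG2 14.5 CPM (43 UMIs), and 4 clusters (MG2, OG3, MG4 and MG1, the last from 1 UMI) did not differ from LIG beyond counting error. At E17.5 MG4 held 22.6 CPM (16.4 to 30.5), MG1 19.1 (15.6 to 23.1), MG2 14.9, EC4 12.9 and OG1 11.8 CPM. The meningeal group as a whole held 11.1 CPM at E15.5 and 16.6 CPM at E17.5, above the ectocranial (5.24 and 7.92) and osteogenic groups (4.46 and 8.09). OG4 was lowest among clusters with a UMI in both libraries (0.553 and 2.19 CPM), near the 1.31 and 1.96 CPM of myeloid-like cells. *Fgf2* overlaps *Nudt6* on the opposite strand, which had 148 and 372 UMIs in labelled cells, and whether the counting used strand is not given in the sources used here.

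*Fgf1* was close to absent from the counts, with 12 UMIs in all labelled cells at E15.5 (0.247 CPM, 0.128 to 0.431) and 11 at E17.5 (0.119 CPM, 0.0593 to 0.213). OG4 held 3 and 7 of them, EC1 2 and 1, OG3 1 and 2, and the 2 myeloid-like groups 0. At this depth no order of clusters can be read for *Fgf1*, and it was left out of the counts above.

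The libraries were next compared for each ligand. Over all labelled cells *Fgf7* was lower at E17.5 (18.6 against 8.44 CPM; ratio 0.454, 0.412 to 0.5), as were *Fgf10* (4.96 against 2.51 CPM; 0.505, 0.420 to 0.608), *Fgf18* (22.7 against 11.7 CPM; 0.516, 0.474 to 0.562) and *Fgf9* (7.45 against 5.01 CPM; 0.673, 0.585 to 0.774). *Fgf2* was higher (5.76 against 9.35 CPM; 1.62, 1.42 to 1.86). The median ratio over all genes tested was 0.994. Of the 5 ligands, 1 (*Fgf7*) was at least 2-fold lower, where 11.8% of genes were, and none was at least 2-fold higher, where 5.62% of genes were, which does not stand apart from the background. These values mix cell levels with cell numbers, since the ectocranial clusters made up 63.8% of the labelled E15.5 cells and 31.4% of the labelled E17.5 cells.

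Within the ectocranial group the order was different. *Fgf18* stood at 29.9 CPM in both libraries (ratio 1.00, 0.909 to 1.10), and *Fgf9* at 10.8 and 10.2 CPM (0.948, 0.804 to 1.12). The *Fgf18* value was not constant in its clusters, with lower levels at E17.5 in EC1 (0.529, 0.332 to 0.823) and LIG (0.711, 0.582 to 0.872) and ratios of 1.19 in EC4 (0.961 to 1.48), 1.12 in EC2 (0.932 to 1.34) and 0.929 in EC3 (0.676 to 1.25), while EC3 went from 22.2% to 2.84% of labelled cells. *Fgf7* (0.494, 0.433 to 0.563) and *Fgf10* (0.458, 0.342 to 0.608) were lower at E17.5 there too. For *Fgf9* the group value held opposite directions of single clusters, with a ratio of 0.591 in EC4 (0.478 to 0.731) and 0.558 in LIG (0.400 to 0.782) and of 4.38 in EC1 (1.57 to 15.1), where it rests on 5 and 18 UMIs. LIG in suffix 1, with 32 cells and 7 UMIs, was above the E15.5 level (ratio 1.25).

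In the osteogenic group *Fgf18* was lower at E17.5 (8.75 against 2.70 CPM; ratio 0.309, 0.238 to 0.403), with OG2 at 11.5 and 1.39 CPM and PO1 at 8.81 and 2.06 CPM. *Fgf10* (0.422, 0.301 to 0.599) and *Fgf7* (0.702, 0.559 to 0.888) were lower as well. *Fgf9* (1.75, 1.10 to 2.90) and *Fgf2* (1.81, 1.36 to 2.47) were higher, with *Fgf9* in OG1 at a ratio of 2.32 (1.19 to 5.20) where 8.94% of genes were at least 2-fold higher. Osteogenic markers of OG1 were higher at E17.5 too, as given above. The level of *Fgf18* in myeloid-like cells differed between libraries too (3.94 and 0.533 CPM), and its part in these ratios was not tested.

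In the meningeal group *Fgf7* (3.41 against 9.87 CPM; 2.89, 1.80 to 4.88) and *Fgf10* (1.37 against 4.27 CPM; 3.13, 1.49 to 7.57) were higher at E17.5. MG1 held 28 E15.5 cells and 423 E17.5 cells, none of the latter with suffix 1. Without MG1, an alternative chosen after the data were seen, the ratios were 1.70 (0.971 to 3.11) and 2.00 (0.827 to 5.55), whose intervals include 1. *Fgf18* stood at 0.939 (0.704 to 1.27) in these clusters.

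**Figure D4:**
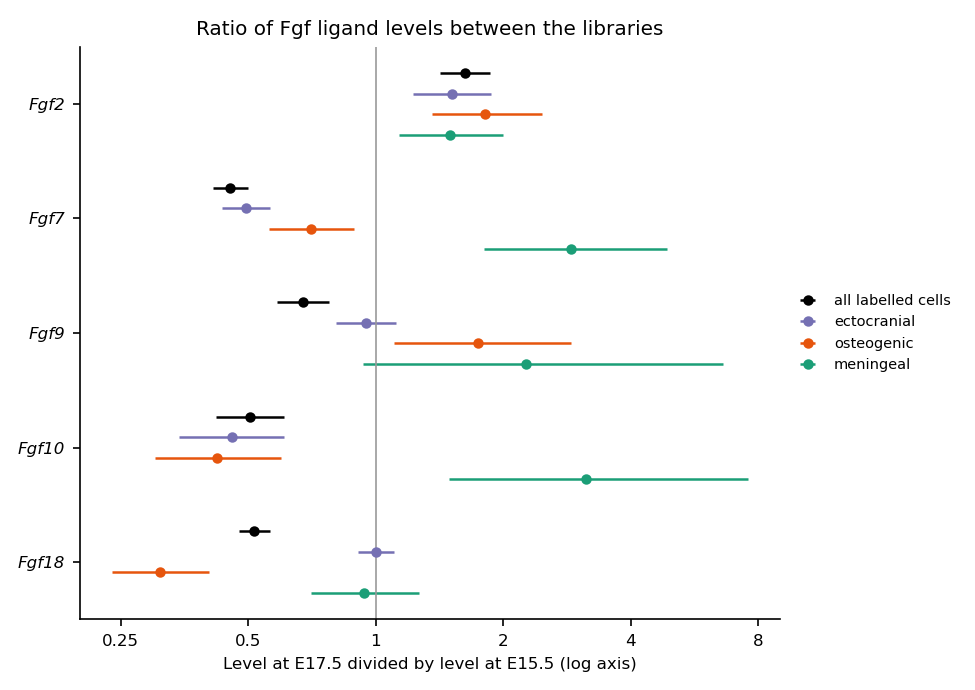
Ratio of the E17.5 to the E15.5 level (log axis) of 5 Fgf ligands over all labelled cells and within the ectocranial, osteogenic and meningeal groups; bars are exact conditional 95% intervals for counting error and the line marks 1. *Fgf18* is at 1.00 in ectocranial and 0.309 in osteogenic cells, and *Fgf7* is below 1 in both and at 2.89 in meningeal cells.

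The genes most like each ligand were taken by Pearson correlation of log2(CPM + 1), centred within each library, over 30 points (15 clusters in 2 libraries) that share 2 libraries and their depths. For *Fgf18* they were *Fbln5* (0.906), *Fbn2* (0.9) and *Fbln2* (0.898), which encode proteins of elastic fibres and microfibrils. The same 3 came first without MG1, MG4 and PO2 (0.978, 0.953 and 0.95), an alternative that was not planned. With Spearman correlation *Fbn2* came first (0.917), *Fbln5* was at rank 5 and *Fbln2* at rank 10. For *Fgf9* they were *Atg4a* (0.740), *C1qtnf3* (0.724) and *Irf2bpl* (0.667), for *Fgf7* *Spata6* (0.846), *Rab38* (0.825) and *Antxr1* (0.821), for *Fgf2* *Rcor3* (0.909), *Arxes1* (0.862) and *Uba7* (0.841), and for *Fgf10* *1300002E11Rik* (0.724), *Cys1* (0.714) and *Sept8* (0.705). Among the ligands the largest values were 0.623 for *Fgf7* and *Fgf10*, 0.558 for *Fgf7* and *Fgf18* and 0.537 for *Fgf9* and *Fgf18*. They describe likeness of pattern over few points.

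Of the 16 other Fgf ligands, 4 had enough UMIs and 3 met the 2-fold rule in some cluster, where 23.5% of all genes did. In EC4, where 1.53% of genes did, these were *Fgf21*, an endocrine ligand (9.04 and 2.00 CPM), and *Fgf11*, which encodes an intracellular Fgf homologous factor (2.44 and 2.89 CPM, from 10 and 13 UMIs). *Fgf11* also met it in MG4 (4.51 and 8.42 CPM; 3.83% of genes), and *Fgf13*, of the same intracellular group, in PO1 (38.7 and 13.3 CPM; 3.97% of genes). *Fgf12* met it nowhere (257 and 255 UMIs), *Fgf5* had 22 and 4 UMIs and *Fgf22* 31 and 0.

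Of the 4 receptors with enough UMIs, *Fgfr1*, the main mesenchymal receptor, was present in every cluster (60.0 to 280.9 CPM at E15.5 and 95.8 to 163 CPM at E17.5). *Fgfr2* stood at 10.5 and 46.7 CPM in EC4, at 92.8 and 132 CPM in OG3, and was lowest in EC2 (4.13 and 15.1 CPM). *Fgfr3* met the 2-fold rule in OG3 (25.5 and 29.4 CPM; 0.895% of genes) and *Fgfrl1*, a receptor without a kinase domain, in MG2 (17.2 and 21.9 CPM; 2.77% of genes). Neither of the 2 klotho coreceptors had enough UMIs, and of 2 carrier proteins *Fgfbp1* met the rule in MG4 (33.1 and 11.6 CPM).

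Of 12 feedback and target genes with enough UMIs, 4 met the rule in some cluster, against 23.5% of all genes. *Il17rd*, which encodes an inhibitor of Fgf signalling, did so in EC4 (22.5 and 9.79 CPM), and *Spry4*, of the Sprouty inhibitors, in LIG (6.77 and 3.37 CPM), the clusters where *Fgf9* met it. *Spry2* did so in EC1 (207 and 46.7 CPM; 0.805% of genes) and *Etv1*, a transcription factor, in OG3 (13.9 and 5.28 CPM; 0.895% of genes). *Fgfr1*, *Fgfr2*, *Fgfr3*, *Fgfrl1*, *Fgfbp1*, *Spry2* and *Etv1* were named after their values had been seen. No pair of a receptor or feedback gene with a ligand was tested.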

How the data were processed

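Single-cell libraries of coronal sutures were analysed at E15.5 (1 library) and E17.5 (3 batches prepared separately and deposited as 1 matrix, called 1 library). The authors deposited raw UMI counts per gene and barcode, made with Cell Ranger on mm10, and a table of cluster labels with counts per cell from Seurat 3.2.0 (per the submitters' notes). Read QC used FastQC 0.11.7 and MultiQC 0.9. The E15.5 matrix (header 3.1.0, 31053 genes, 15384 barcodes) gave fewer UMIs than the deposited label table for all 5335 matched cells (median 8510 against 11513) and lacked 5 of its 5340 cells; the E17.5 matrix (27998 genes, 9326 barcodes) matched it. A processed expression table of both stages was not used.

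UMIs were summed per library and label and divided by all UMIs of those cells. Poisson intervals, Clopper-Pearson intervals for shares and conditional binomial intervals for ratios were exact (95%), and a count of 0 was given a limit of 3 counts. With 1 deposited sample per stage there was no test and no p-value. Genes needed 20 UMIs in the labelled cells of each library for the 2-fold rule (cluster against all other labelled cells, both libraries), and 500 for the correlations (100 for a ligand). For shares of cells, each cell was also thinned to 3000 UMIs, leaving out 160 shallower E15.5 cells and 0 from the E17.5 library. Doublets were marked with Scrublet (expected rate 0.06; the top 6% of scores, above percentile 94) and left out only in an alternative.

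Unlabelled barcodes with at least 1000 UMIs and 1000 genes, under 7.5% mitochondrial UMIs and under 3% of Hba or Hbb UMIs (2875 and 1937 cells) were clustered in each library (2000 variable genes, 30 principal components, 30 neighbours, Leiden resolution 1) and named only where 3 markers of a list of other cell types were at least 2-fold higher. The 93 labelled E15.5 cells outside these limits were kept. Genes named are the 6 ligands, other Fgf ligands with 20 UMIs, receptor and feedback genes past the 2-fold rule where a ligand passes it, the 3 most correlated genes per ligand and the label markers; exceptions are stated. The members and lists were chosen with earlier results of these data known. A planned comparison of protein sequences was not made. Statistics were tested on simulated data. Positions are GENCODE M21 on GRCm38; promoter sequences are RefSeq's. Clustering used scanpy 1.11.5 with igraph 0.11.9 and anndata 0.12.19, run in Python 3.11.15; intervals used scipy 1.17.1, tables pandas 2.3.3 and numpy 2.4.6, and figures matplotlib 3.10.9.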

Additional observations from a re-analysis of the deposited data

Results flagged for a closer look

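*Fgf9* moved in opposite directions between clusters from E15.5 to E17.5, beyond counting error. Its ratio of the E17.5 to the E15.5 level was 4.38 in EC1, 3.31 in MG2 and 2.32 in OG1, and 0.591 in EC4 and 0.558 in LIG. *Fgf2* did the same, with ratios of 2.43 in EC1, 3.76 in MG4 and 1.95 in OG2 against 0.592 in LIG. With 1 deposited sample per stage the difference between clusters was not tested for either gene. The MG4 ratio rests on 4 UMIs at E15.5. The EC1 and MG2 ratios of *Fgf9* rest on 5 E15.5 UMIs each, with an interval of 1.26 to 11.0 in MG2. At E15.5 neither EC1 nor MG2 was told from the *Fgf9* level of myeloid-like cells. The OG1 label held unlike levels of osteogenic markers at the stages compared.

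The highest level of *Fgf10* lay outside the labelled cells. An unnamed cluster of 74 unlabelled E15.5 cells, led by *Stmn2*, *Hs3st6*, *Dll1*, *Cpne5* and *Frem1*, held 63.4 CPM (47.3 to 83.1; 52 UMIs in 28 cells, 37.8%), 5.54-fold above OG1 (3.31 to 9.58), the highest labelled cluster. At E17.5 the highest unlabelled level was in 97 neurons-like cells, at 9.39 CPM (15 UMIs). Another unnamed E15.5 cluster of 34 cells, led by *Dio3*, *Ngfr*, *Aldh1a2* and *Osr1*, held *Fgf2* at 35.4 CPM (16.2 to 67.2; 9 UMIs in 6 cells), 2.35-fold above LIG (1.03 to 4.77), and *Fgf7* at 51.1 CPM (13 UMIs). Its markers had given it a name that its leading genes contradict, so it was left unnamed, a choice made after the data were seen.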

How the results depend on the processing

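The 4 pairs of a ligand and a cluster became 2 with suffix 2 alone and 8 at a 1.5-fold limit, which added *Fgf2* in MG2, *Fgf10* in EC3 and *Fgf18* in EC4 and LIG. *Fgf9* in EC4 met the rule under every alternative run, *Fgf7* in EC3 under all but thinned shares, *Fgf10* in OG1 under all but suffix 2, suffix 3 and unweighted clusters, and *Fgf9* in LIG was lost without doublets, with suffix 2, with means per cell, with thinned shares and with unweighted clusters. Over all labelled cells, the ratio of E17.5 to E15.5 kept its direction for all 5 ligands. With suffix 1 alone it was 1.33 for *Fgf2*, 0.531 for *Fgf7* and 0.810 for *Fgf9*, and with suffix 3 alone 0.404 for *Fgf7*. Means per cell gave 0.534 for *Fgf7*, 0.790 for *Fgf9* and 0.592 for *Fgf18*, and thinned shares 0.528, 0.829 and 0.618. The unweighted mean of clusters gave 0.722 for *Fgf7*, 0.820 for *Fgf9*, 0.673 for *Fgf10* and 0.759 for *Fgf18*. Leaving out MG1 and EC3 gave 1.34 for *Fgf2*, 0.501 for *Fgf7* and 0.585 for *Fgf9*. Of the 21 ratios within a cluster whose interval excludes 1, 3 reversed, *Fgf9* in LIG (1.25) and *Fgf10* in EC3 (1.05) with suffix 1 alone and *Fgf18* in PO1 (1.26) with thinned shares, as did 1 of 11 such ratios of a cluster group, *Fgf2* in meningeal cells (0.996, thinned shares). Of the 32 ratios within a cluster whose interval includes 1, 17 crossed 1 under some alternative, 9 of them with thinned shares (*Fgf7* and *Fgf18* in EC3 and *Fgf2* in EC2 and MG2 among them). Of the 15 most correlated genes, 4 remained with Spearman correlation and 7 without MG1, MG4 and PO2. The cause of these shifts was not tested. No paired analysis was possible because each stage has 1 deposited sample. Counts of *Fgf1*, and of most ligands in MG1, MG4 and PO2 at E15.5, are too low to order clusters.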
